A study of Homo sapiens with 6 samples.

Results

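The genes described here are 10 apoptosis genes, namely BIRC3 and the BCL2 family genes BCL2, BCL2L1, MCL1, BAX, BAK1, BBC3, PMAIP1, BCL2L11 and BID. The family genes set the threshold for mitochondrial cell death. All 10 genes were chosen by gene name, with no threshold on a measured value, and each matched 1 of the 20811 genes in the expression table. RNA was measured in HuCCT1, a human intrahepatic cholangiocarcinoma cell line, in 2 transduced lines with 3 libraries each. HuCCT1/CD90+ cells carried a lentivirus with human THY1, the gene of CD90, in a vector named THY1-CMV-GFP. HuCCT1/CD90− cells carried the control vector Lenti-CMV-GFP-2A-Puro-Blank. Both vectors were applied at a multiplicity of infection of 40, both lines were grown in RPMI with 10% fetal bovine serum, and no drug was given. The labels name a puromycin cassette for the control vector alone. Whether either line is 1 clone, and whether the 3 libraries of a line came from separate cultures, is not given in the sources used here, so the p-values measure the spread between these libraries, which may be technical.

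Proteins of the BCL2 family decide whether the outer mitochondrial membrane is permeabilised. The anti-apoptotic members BCL2, BCL-XL (gene BCL2L1) and MCL1 hold the effectors BAX and BAK (gene BAK1) and the BH3-only proteins in check. BH3-only proteins such as PUMA (BBC3), NOXA (PMAIP1), BIM (BCL2L11) and BID occupy the anti-apoptotic proteins or activate the effectors. BAX and BAK then release cytochrome c, which switches on caspases through APAF1. BIRC3 encodes cIAP2, a ubiquitin ligase of the inhibitor of apoptosis (IAP) family that acts at TNF receptors and is a known NF-kB target gene. In cholangiocarcinoma, MCL1 and BCL-XL are known survival proteins, and MCL1 is known to be induced by interleukin-6 through STAT3. Many of these proteins are controlled by turnover, modification and binding, which a transcript level does not show.

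Expression is given in RPM, reads scaled to the same total in each library, with each gene read from 1 short amplicon. The libraries held 8587634 to 10551516 reads, so that 3 reads, the detection floor used here, were worth 0.284 to 0.349 RPM. Reads of THY1 numbered 0, 1 and 0 in HuCCT1/CD90−, as against 435, 445 and 680 in HuCCT1/CD90+, so the transduced gene went with the labels. The cholangiocyte keratin genes KRT7 and KRT19 were abundant in each library, and the 9 biliary epithelial markers summed to 8253 to 9333 RPM in HuCCT1/CD90− libraries, as against 10976 to 11722 RPM in HuCCT1/CD90+. Members of that list went opposite ways, with EPCAM at 28.6 and 363 RPM and SPP1 at 31.8 and 0.480 RPM in the 2 lines. Of 5 hepatocyte markers, 4 (ALB, TTR, TF and CYP3A4) were at or under the floor, and the 5 summed to 1.75 to 4.28 and 0.217 to 0.465 RPM. Fibroblast markers, 6 in all and none at the floor in both lines, summed to 41.8 to 64.9 RPM in HuCCT1/CD90− and to 20.3 to 24.7 RPM in HuCCT1/CD90+. Of these, 5 were called lower, and COL1A2, COL3A1 and DCN were at the floor in HuCCT1/CD90+. DCN went from 7.09 to 0.039 RPM, while COL1A1, the gene not called, was at 13.5 and 14.2 RPM. The 6 leukocyte and endothelial markers summed to 61.0 to 74.6 and 84.6 to 102 RPM, with PTPRC and CD3E at the floor. Within that sum CD68, a macrophage marker, went from 50.8 to 92.2 RPM, whereas the endothelial marker CDH5 went from 16.6 to 0.293 RPM (adjusted p = 0.00080, limma) and PECAM1 from 2.19 to 0.527 RPM (adjusted p = 0.14). VWF, also endothelial, was at 0 in HuCCT1/CD90− and at 0.107, 0.349 and 0.434 RPM in HuCCT1/CD90+ (adjusted p = 0.091, limma). The part of these marker levels in the results below was not tested.

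The lines were compared with limma on log2(RPM + 1) values, with p-values adjusted by the Benjamini-Hochberg method over all 20811 genes. A gene is called higher or lower in HuCCT1/CD90+ where this adjusted p was at most 0.05. Of the 10 genes, BCL2L1 was called higher and BCL2L11 was called lower, while 8 were not called. Over all genes tested, 9.41% were called higher and 9.52% lower, so that 1 of 10 in each direction is close to the background. The same 2 genes passed a fold change of at least 1.5 with an unadjusted p of at most 0.05, which 20.1% of all genes passed. The 3 libraries of one line lay wholly above or below those of the other for 3 of the 10 genes, BCL2L1, BAX and BCL2L11, against 35% of all genes. These shares over all genes include 3805 genes at 0 in all libraries, which could not be called. Most of the 10 are well expressed, as 8 had a mean of at least 10 RPM. Among the 8794 genes with such a mean, 14.3% were called higher, 14.1% lower, and 52.5% did not overlap. The median log2 fold change of the 10 genes was -0.055, with 5 above and 5 below 0, against a median of 0.012 for the genes with at least 10 RPM. The 2 genes called belong to the opposing sides of the family, one anti-apoptotic and one BH3-only.

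**Figure D1:**
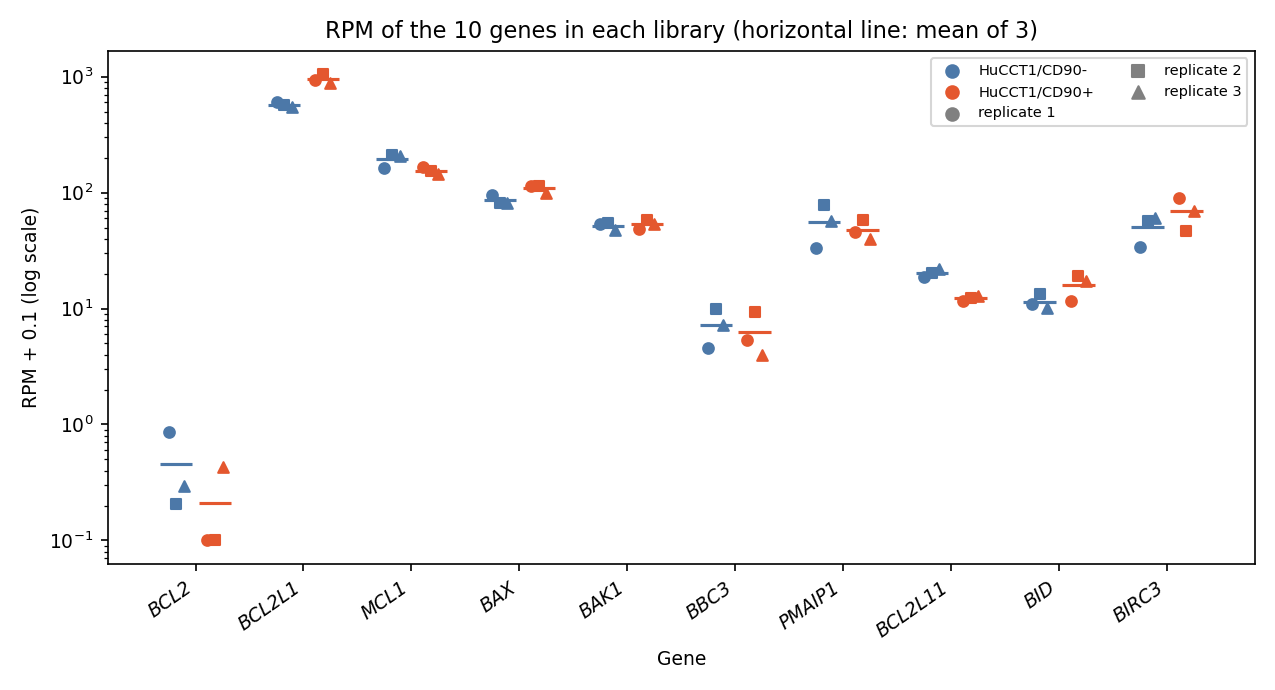
RPM of the 10 genes in each library, on a log axis with 0.1 RPM added, by gene on the horizontal axis. Blue symbols are the HuCCT1/CD90− libraries, orange symbols the HuCCT1/CD90+ libraries, the shape gives the replicate number and the line the mean of 3. The orange symbols lie above the blue ones for BCL2L1 (884 to 1053 against 546 to 601 RPM) and below them for BCL2L11 (11.5 to 12.7 against 18.6 to 21.6 RPM).

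Among the anti-apoptotic genes, BCL2L1 rose in HuCCT1/CD90+. BCL2L1 encodes BCL-XL, which binds BAX, BAK and BH3-only proteins at the mitochondrial membrane, and its gene spans chr20:31664452-31723989 on the minus strand (GRCh38, GENCODE 29). It measured 601, 575 and 546 RPM in HuCCT1/CD90− and 937, 1053 and 884 RPM in HuCCT1/CD90+. The lowest HuCCT1/CD90+ library was well above the highest HuCCT1/CD90− library. The mean went from 574 ± 27.2 to 958 ± 86.4 RPM (SD, n = 3 each), a fold of 1.66 with a 95% confidence interval of 1.44 to 1.93 (log2 fold change 0.73, standard error 0.080, adjusted p = 0.0074, limma). Each library held 5376 to 9043 reads of BCL2L1, so counting error is small beside the spread between libraries. In bulk RNA, more cells with a transcript and more of it per cell cannot be told apart. Among genes with at least 10 RPM its rise ranked 1002 of 8794, and 21.0% of these genes had a larger change in either direction. Its 50 nearest expressed genes, taken from its own chromosome at 10 RPM or more, moved by a median of -0.011 on the log2 scale. In each of the 16 alternative analyses BCL2L1 was called higher, with log2 fold changes of 0.66 to 0.79 and adjusted p-values of 4.8e-07 to 0.037. The amplicon does not tell which BCL2L1 isoform, the long anti-apoptotic or the short pro-apoptotic one, the reads came from, and antisense genes (ABALON among them) overlap the locus.

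MCL1, a short-lived protein that restrains BAK and BIM, has its gene at chr1:150574551-150579738 on the minus strand. MCL1 measured 163, 212 and 208 RPM in HuCCT1/CD90− and 165, 155 and 144 RPM in HuCCT1/CD90+. The groups overlapped, because HuCCT1/CD90− replicate 1 lay below HuCCT1/CD90+ replicate 1. The means were 194 ± 27.2 and 155 ± 10.5 RPM, and the log2 fold change of -0.32 (standard error 0.13, 95% confidence interval -0.66 to 0.019) did not pass the threshold (adjusted p = 0.18, limma). Without HuCCT1/CD90− replicate 1 MCL1 was called lower, with a log2 fold change of -0.44 and an adjusted p of 0.041 (limma). Genes around MCL1 were lower too, with a median log2 fold change of -0.54 for the 50 nearest and -0.32 for the 954 expressed genes of chromosome 1. With the change of the neighbours subtracted, the sign of the MCL1 value turned, to a log2 fold change of 0.22 (adjusted p = 0.38, limma).

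BCL2 itself was barely detected. Its gene, the founder of the family, lies at chr18:63123346-63320128 on the minus strand. HuCCT1/CD90− gave 8, 1 and 2 reads of BCL2, and HuCCT1/CD90+ gave 0, 0 and 3. The level was 0.758, 0.107 and 0.194 RPM in the former and 0, 0 and 0.326 RPM in the latter, which puts HuCCT1/CD90+ at the floor. Summed over a line, 11 against 3 reads give a ratio of HuCCT1/CD90− to HuCCT1/CD90+ of 3.29, with an exact 95% interval of 0.87 to 18.4 that covers counting error only. A difference in BCL2 was therefore not detectable at this depth (adjusted p = 0.57, limma).

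The sequences before the starts of the 2 called genes and of BAX are shown because these are the members whose libraries did not overlap between the lines. They are RefSeq GRCh38.p14 sequences of up to 250 bases before a RefSeq gene start, shortened where an annotated exon begins, each printed 5′ to 3′ on the strand of its gene. Capitals mark letters that match 1 of 7 searched motifs on either strand, and the named motifs do not overlap in these stretches. BCL2L1 lies at chr20:31723990-31724213 (minus strand, 224 bases, 47.8% G or C, 11 CpG dinucleotides) and has no match in the printed stretch. BCL2L11 lies at chr2:111120664-111120913 (plus strand, 250 bases, 76.8% G or C, 34 CpG dinucleotides), inside the annotated span of the gene but outside its exons, with a FOXO motif and a CCAAT box. BAX lies at chr19:48954625-48954814 (plus strand, 190 bases, 61.1% G or C, 17 CpG dinucleotides), with 2 CCAAT boxes and 2 E-boxes.
BCL2L1: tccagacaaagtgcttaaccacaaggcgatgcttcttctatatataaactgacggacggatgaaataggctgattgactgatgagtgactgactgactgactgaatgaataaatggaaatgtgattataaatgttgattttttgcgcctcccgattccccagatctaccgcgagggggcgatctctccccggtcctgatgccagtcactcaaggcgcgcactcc
BCL2L11: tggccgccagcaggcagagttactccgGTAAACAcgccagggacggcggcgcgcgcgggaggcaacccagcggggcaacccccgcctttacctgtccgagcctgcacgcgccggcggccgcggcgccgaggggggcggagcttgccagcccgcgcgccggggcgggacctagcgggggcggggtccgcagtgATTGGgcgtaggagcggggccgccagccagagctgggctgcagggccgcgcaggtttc
BAX: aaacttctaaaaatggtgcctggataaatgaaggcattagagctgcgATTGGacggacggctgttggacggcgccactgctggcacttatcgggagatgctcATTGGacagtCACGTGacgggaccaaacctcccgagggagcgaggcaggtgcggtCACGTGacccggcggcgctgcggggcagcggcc

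The motifs were FOXO (GTAAACA), NF-kB (GGGANTTTC), STAT (TTCNNNGAA), CRE (TGACGTCA), ETS (CCGGAAG), E-box (CACGTG) and CCAAT, where N is any base. They were searched in windows of 300 bases, 250 before and 50 after each RefSeq start, of which 9 of the 10 genes had 14 among 35116 in all. BCL2L11, a known FOXO3 target gene, holds its FOXO motif 223 bases before the start, and 3.42% of all windows hold one. BAX holds E-boxes 138, 93, 45 and 14 bases before the start, of which the printed stretch contains the first 2. At least 1 E-box was found in 7.26% and 4 or more in 0.0142% of all windows. The only match of BCL2L1 was an ETS motif 9 bases after the start, outside the printed stretch, a motif that 10.3% of windows hold. BBC3 and BID also had E-boxes, and no window of the 9 genes, which leave out MCL1, held the NF-kB, STAT or CRE letters, which 1.28%, 7.66% and 1.85% of all windows hold. The CCAAT letters are common and were found in 34.6% of all windows. A match is a description of the letters and does not show binding.

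Neither effector gene was called. BAX, which moves from the cytosol to mitochondria to form pores, lies at chr19:48954815-48961798 on the plus strand. It measured 96.2, 81.6 and 80.7 RPM in HuCCT1/CD90− and 113, 114 and 99.5 RPM in HuCCT1/CD90+. The lines did not overlap, although HuCCT1/CD90− replicate 1 and HuCCT1/CD90+ replicate 3 came close. The means were 86.2 ± 8.68 and 109 ± 8.07 RPM (SD, n = 3 each), a fold of 1.26 and a log2 fold change of 0.33 (standard error 0.097, 95% confidence interval 0.076 to 0.59). BAX did not pass the threshold (unadjusted p = 0.022, adjusted p = 0.090, limma), nor did it in any of the 16 alternatives, where the adjusted p was 0.055 to 0.43. Its neighbours had a median log2 fold change of 0.19, and 0.15 was left for BAX once this was subtracted.

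BAK1 encodes BAK, the effector that sits in the mitochondrial membrane, and lies at chr6:33572547-33580293 on the minus strand. It measured 53.5, 54.4 and 47.1 RPM in HuCCT1/CD90− and 48.8, 57.6 and 53.7 RPM in HuCCT1/CD90+. The values of the lines were intermingled. The means of 51.7 ± 3.93 and 53.4 ± 4.44 RPM gave a log2 fold change of 0.046 (adjusted p = 0.89, limma), with a 95% confidence interval of 0.876 to 1.22 on the fold. The 50 neighbours of BAK1 had a median log2 fold change of -0.30, and relative to them BAK1 was at 0.34 (adjusted p = 0.079, limma). The annotation holds 2 BAK1 pseudogenes, BAK1P1 and BAK1P2, so its reads may be shared and its value is uncertain.

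Of the BH3-only genes, BCL2L11 fell in HuCCT1/CD90+. BCL2L11 encodes BIM, which binds all anti-apoptotic members and can activate BAX and BAK directly, and lies at chr2:111119378-111168447 on the plus strand. It measured 18.6, 20.01 and 21.6 RPM in HuCCT1/CD90− and 11.5, 12.2 and 12.7 RPM in HuCCT1/CD90+. The spread within a line was small, and the lines were clearly apart. The mean went from 20.1 ± 1.53 to 12.1 ± 0.618 RPM (SD, n = 3 each), a fold of 0.624 with a 95% confidence interval of 0.549 to 0.708 (log2 fold change -0.68, standard error 0.069, adjusted p = 0.0060, limma). Each library held 105 to 223 reads of BCL2L11. Its fall ranked 972 of the 8794 genes with at least 10 RPM, and 23.8% of these had a larger change in either direction. Its neighbours had a median log2 fold change of -0.0033. BCL2L11 was called lower in each of the 16 alternatives, with log2 fold changes of -0.73 to -0.55 and adjusted p-values of 0.0010 to 0.030. The reverse strand of the locus carries the long non-coding gene MIR4435-2HG, and whether the counting used strand is not given in the sources used here.

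**Figure D2:**
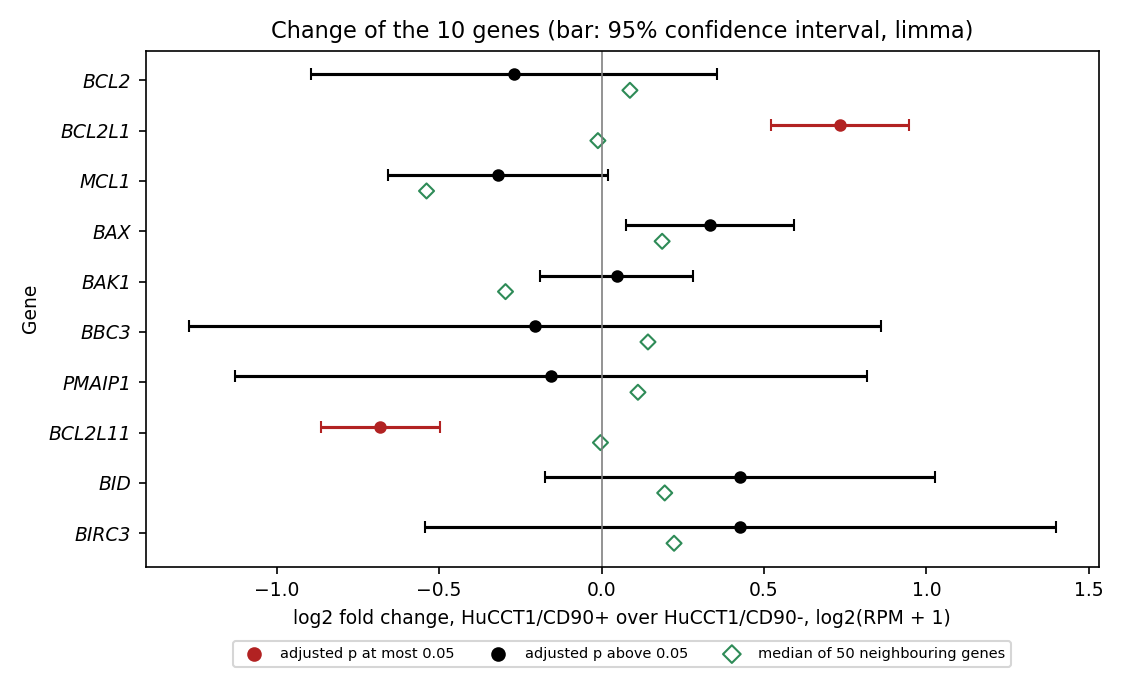
Log2 fold change of HuCCT1/CD90+ over HuCCT1/CD90− for the 10 genes (circles, with the 95% confidence interval of limma as a bar; red where the adjusted p is at most 0.05), and the median change of the 50 nearest expressed genes (green diamonds). BCL2L1 at 0.73 and BCL2L11 at -0.68 lie far from 0 while their neighbours lie near 0, and the MCL1 circle at -0.32 lies above its neighbours at -0.54.

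The stress-induced BH3-only genes BBC3 and PMAIP1 varied more between replicates than between the lines. BBC3 encodes PUMA and lies at chr19:47220822-47232766 on the minus strand. It measured 4.45, 9.74 and 7.18 RPM in HuCCT1/CD90− and 5.25, 9.20 and 3.91 RPM in HuCCT1/CD90+, from 36 to 91 reads. Replicate 2 was the highest of both lines. The log2 fold change of BBC3 was -0.20 with a 95% confidence interval of -1.27 to 0.86 (adjusted p = 0.90, limma), so that neither a fall nor a rise by a fold of 1.5 can be told from no change.

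PMAIP1 encodes NOXA, which binds MCL1 and promotes its degradation, and lies at chr18:59899948-59904306 on the plus strand. It measured 33.2, 77.7 and 56.5 RPM in HuCCT1/CD90− and 45.5, 58.0 and 39.7 RPM in HuCCT1/CD90+. Again replicate 2 was the highest of both lines, and the HuCCT1/CD90+ values lay within the range of HuCCT1/CD90−. The means were 55.8 ± 22.3 and 47.7 ± 9.35 RPM, with a log2 fold change of -0.16 and a 95% confidence interval of -1.13 to 0.82 (adjusted p = 0.95, limma). Without HuCCT1/CD90− replicate 2 the sign turned, to 0.12.

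BID, which caspase-8 cleaves to link death receptors to mitochondria, lies at chr22:17734138-17774770 on the minus strand. It measured 10.8, 13.4 and 9.99 RPM in HuCCT1/CD90− and 11.5, 19.0 and 17.1 RPM in HuCCT1/CD90+. The HuCCT1/CD90+ replicates 2 and 3 lay above all HuCCT1/CD90− libraries, and replicate 1 did not. The means were 11.4 ± 1.77 and 15.9 ± 3.91 RPM. BID was not called, at 0.43 on the log2 scale with a 95% confidence interval of -0.18 to 1.03 (adjusted p = 0.30, limma).

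BIRC3 lies at chr11:102317450-102339403 on the plus strand. It measured 33.7, 57.1 and 60.8 RPM in HuCCT1/CD90− and 90.6, 46.1 and 69.2 RPM in HuCCT1/CD90+. The highest value came from HuCCT1/CD90+ replicate 1, but replicate 2 of that line lay below 2 of the HuCCT1/CD90− libraries. The means were 50.6 ± 14.7 and 68.6 ± 22.2 RPM, a log2 fold change of 0.43 with a 95% confidence interval of -0.54 to 1.40 (adjusted p = 0.57, limma). BIRC2, the neighbouring gene that encodes cIAP1, had 129 ± 17.5 and 206 ± 31.3 RPM (log2 fold change 0.67, adjusted p = 0.053, limma) and was chosen for mention after its values were seen. BIRC2 was called higher with edgeR (adjusted p = 0.0010) and DESeq2 (8.3e-05), and its adjusted p was 0.17 with the replicate block. With the neighbours subtracted BIRC2 was at 0.45 (adjusted p = 0.15, limma).

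Because anti-apoptotic proteins act by binding, transcripts were set against each other within each library for 6 pairs of genes. The pairs are known binding partners, except BCL2L1 to MCL1, which sets 1 anti-apoptotic gene against another. They were chosen after the values were seen and are therefore given as a description without a test. Amplicons differ in yield, so a ratio can be compared between the lines but not read as a ratio of molecules. The BCL2L1 to BCL2L11 ratio was 32.3, 28.7 and 25.3 in HuCCT1/CD90− and 81.7, 86.1 and 69.6 in HuCCT1/CD90+, a fold of 2.75 between the geometric means. This pair joins the 2 genes that were called, and its ratio was higher in each HuCCT1/CD90+ library. The ratio of the anti-apoptotic genes BCL2L1 and MCL1 was 3.69, 2.72 and 2.63 against 5.68, 6.79 and 6.15, a fold of 2.08. The BCL2L1 to BAK1 ratio was 11.2, 10.6 and 11.6 against 19.2, 18.3 and 16.5, a fold of 1.61. The MCL1 to BCL2L11 ratio was 8.77, 10.6 and 9.61 against 14.4, 12.7 and 11.3, also without overlap. By contrast, the values of the lines overlapped for MCL1 to PMAIP1 (2.73 to 4.91 against 2.67 to 3.63) and for MCL1 to BAK1 (3.05 to 4.41 against 2.68 to 3.38).

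**Figure D3:**
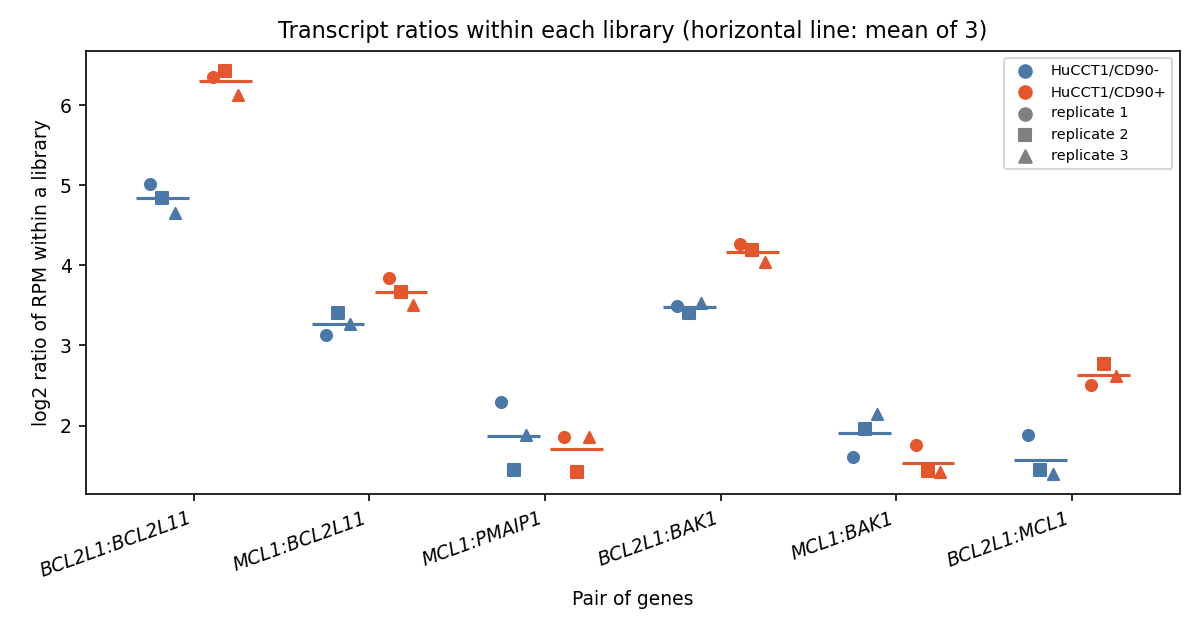
Log2 of the RPM ratio of 6 pairs of genes within each library, with symbols and colours as in the plot of RPM by library and a line at the mean of 3. The largest gap between the lines is that of BCL2L1 to BCL2L11, with means of 4.84 in HuCCT1/CD90− and 6.30 in HuCCT1/CD90+, while the symbols of MCL1 to PMAIP1 and MCL1 to BAK1 overlap.

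For the 3 members with the smallest adjusted p, the genes whose levels ran most alike were looked up among the other 8793 genes with at least 10 RPM, by Pearson correlation on log2(RPM + 1) over the 6 libraries. With 2 separate lines such a correlation mostly reflects the difference between them, and it is given as a description. DROSHA (r = 0.998) and SPP1 (r = 0.998) were most like BCL2L11, SPINT2 (r = 0.998) and VOPP1 (r = 0.995) most like BCL2L1, and PSMB6 (r = 0.992) and TAGLN3 (r = 0.991) most like BAX. At r of at least 0.95 there were 577 genes for BCL2L11, 489 for BCL2L1 and 63 for BAX. Genes with like patterns differed in the size of their change, since the log2 fold change was -0.50 for DROSHA and -4.41 for SPP1, 1.34 for SPINT2 and 0.85 for VOPP1, and 0.21 for PSMB6 and 0.79 for TAGLN3.

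The rest of the apoptosis machinery was described with 8 lists of 101 genes, of which 12 were called higher and 5 lower, with a median log2 fold change of 0.072. Over all genes 9.41% were called higher and 9.52% lower, and among genes with at least 10 RPM 14.3% and 14.1%. The difference from these shares was not tested. Of the 16 other BCL2 family genes, 3 were called higher and none lower (median log2 fold change 0.033, or 0.081 without BCL2L10 and BNIP3, which were at the floor in both lines). BCL2L15, a distant family member, rose from 2.01 ± 0.368 to 6.13 ± 0.982 RPM, or by 1.24 on the log2 scale (adjusted p = 0.0090, limma). BAD, a BH3-only gene whose protein binds BCL-XL and BCL2, measured 50.6, 67.6 and 68.7 RPM in HuCCT1/CD90− and 117, 96.1 and 109 RPM in HuCCT1/CD90+. Its lines were well apart and BAD rose, by a log2 fold change of 0.78 (adjusted p = 0.034, limma). With the replicate block the adjusted p was 0.13. The neighbours of BAD had a median log2 fold change of 0.33, and relative to them BAD was at 0.45 (adjusted p = 0.14). Leaving out any library but HuCCT1/CD90− replicate 1 also ended the call of BAD (adjusted p up to 0.11). HRK, a BH3-only gene near the floor that is named because it is the last of the 3, went from 0.339 to 1.33 RPM (adjusted p = 0.025, limma, or 0.069 with the block). With the block only BCL2L15 of this list was called.

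The other family members that averaged 1 RPM or more were not called. Of the BH3-only genes, BIK had 18.4 ± 1.29 and 14.6 ± 1.61 RPM (log2 fold change -0.32, adjusted p = 0.10, limma), with all HuCCT1/CD90+ libraries below those of HuCCT1/CD90−, and BMF had 9.74 ± 3.54 and 10.1 ± 3.14 RPM. The anti-apoptotic BCL2L2, which encodes BCL-W, had 3.08 ± 0.777 and 4.46 ± 0.389 RPM (log2 fold change 0.44, adjusted p = 0.17, limma). The effector-like BOK had 19.6 ± 0.969 and 17.8 ± 5.49 RPM. BCL2L12, BCL2L13, BNIP1, BNIP2 and BNIP3L had log2 fold changes from -0.10 for BNIP1 to 0.43 for BNIP3L. BNIP3L was not called with limma (adjusted p = 0.21) but was called higher on the recovered reads with edgeR (adjusted p = 0.034) and DESeq2 (0.028). Without HuCCT1/CD90− replicate 1, BCL2L12 was called higher (log2 fold change 0.33, adjusted p = 0.019, limma), against 0.22 (adjusted p = 0.24) with all libraries.

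Upstream of the members, 12 transcription factors known to regulate them included 1 that was called lower and none that was called higher (median log2 fold change 0.10). TP63, which maintains basal epithelial cells, fell from 5.96 ± 1.75 to 0.404 ± 0.0477 RPM, with a log2 change of -2.28 (adjusted p = 0.0053, limma). MYC, which had 103 ± 16.4 and 154 ± 22.4 RPM, was not called (log2 fold change 0.57, adjusted p = 0.086, limma). But it was called higher with the replicate block (adjusted p = 0.037), with edgeR (0.0060) and with DESeq2 (0.0025). With the neighbours subtracted MYC was at 0.35 (adjusted p = 0.27, limma). FOXO3, a known activator of BCL2L11 that is named although not called, had 96.7 ± 5.18 and 107 ± 10.8 RPM (adjusted p = 0.43, limma). Relative to its neighbours, with a median of -0.51, it was at 0.64 (adjusted p = 0.016, limma). That p takes the neighbour median as fixed and is no test of FOXO3 against its neighbours. Of 19 DNA damage response genes, 3 were called higher and 1 lower (median log2 fold change 0.33). CDKN1A, the cell cycle inhibitor p21, rose with a log2 fold change of 1.53, C12orf5, now named TIGAR, with 1.06 and GADD45A with 0.81, while the DNA repair gene XPC fell with -0.97 (adjusted p = 0.010, 0.0075, 0.0497 and 0.0058, limma). GADD45A lost its call with the replicate block (adjusted p = 0.056).

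Of 9 genes for binding partners and turnover factors of the members, 2 were called higher (median log2 fold change 0.10). DYNLL2, a dynein light chain known to bind BMF and BIM, measured 74.4, 83.5 and 67.8 RPM in HuCCT1/CD90− and 181, 166 and 158 RPM in HuCCT1/CD90+. The lines were far apart and DYNLL2 rose by a log2 fold change of 1.15 (adjusted p = 0.0039, limma). FBXW7, part of a ubiquitin ligase that targets MCL1, rose from 7.46 ± 1.38 to 15.6 ± 3.78 RPM (adjusted p = 0.049, limma, or 0.069 with the block). The log2 fold change of FBXW7 was 0.96, and 0.67 with the neighbours subtracted (adjusted p = 0.13, limma). The MCL1 ubiquitin ligase gene HUWE1 and the MCL1 deubiquitinase gene USP9X, which are named although not called, had log2 fold changes of -0.053 and 0.0036.

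Downstream of the mitochondria, 1 of 11 apoptosome and caspase genes was called higher and 1 lower (median log2 fold change 0.25). CASP6, an executioner caspase, measured 15.1, 15.4 and 15.4 RPM in HuCCT1/CD90− and 38.9, 34.6 and 35.2 RPM in HuCCT1/CD90+. It rose by a log2 fold change of 1.19 (adjusted p = 0.00078, limma). DFFA, the inhibitor of the caspase-activated nuclease, fell from 94.1 ± 6.97 to 66.1 ± 2.64 RPM (adjusted p = 0.012, limma), but its neighbours on chromosome 1 had a median of -0.61 and DFFA was at 0.098 relative to them (adjusted p = 0.46). With the replicate block 3 genes of this list were called higher, CASP2, CFLAR and CASP6. The neighbours of CASP2 had a median of 0.50, and CASP2 was at -0.10 relative to them (adjusted p = 0.59, limma). Of 12 death receptor genes, TNFRSF10A, a TRAIL receptor, was called higher (30.2 ± 2.12 to 45.9 ± 5.78 RPM, adjusted p = 0.030, limma). The log2 fold change of TNFRSF10A was 0.58, and 0.47 with the neighbours subtracted (adjusted p = 0.058). The call was also lost on leaving out any library but HuCCT1/CD90+ replicate 2 (adjusted p up to 0.0995). The gene of the ligand TRAIL, TNFSF10, was called lower (23.8 ± 4.42 to 4.97 ± 1.49 RPM, log2 change -2.07, with adjusted p = 0.0085, limma), with a median of 0.055 for the list. With the block FADD was called as well.

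Of the 9 other IAP genes and IAP antagonists, 1 was called higher and none lower (median log2 fold change 0.14, with NAIP at 0 in each library). HTRA2, a mitochondrial protease known to antagonise IAPs, rose from 47.8 ± 3.41 to 68.7 ± 7.04 RPM (adjusted p = 0.031, limma, or 0.064 with the block). BIRC3 is also a known NF-kB target, and of 13 other NF-kB target genes 1 was called higher and 1 lower, with a median log2 fold change of -0.75. LTB, a TNF family ligand, rose from 0.618 ± 0.258 to 5.54 ± 1.12 RPM, or by 2.01 on the log2 scale (adjusted p = 0.0050, limma). TNFAIP2 fell from 652 ± 233 to 263 ± 36.6 RPM (adjusted p = 0.0499, limma, or 0.057 with the block). In this list edgeR on the recovered reads called 7 genes lower and 2 higher.

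**Figure D4:**
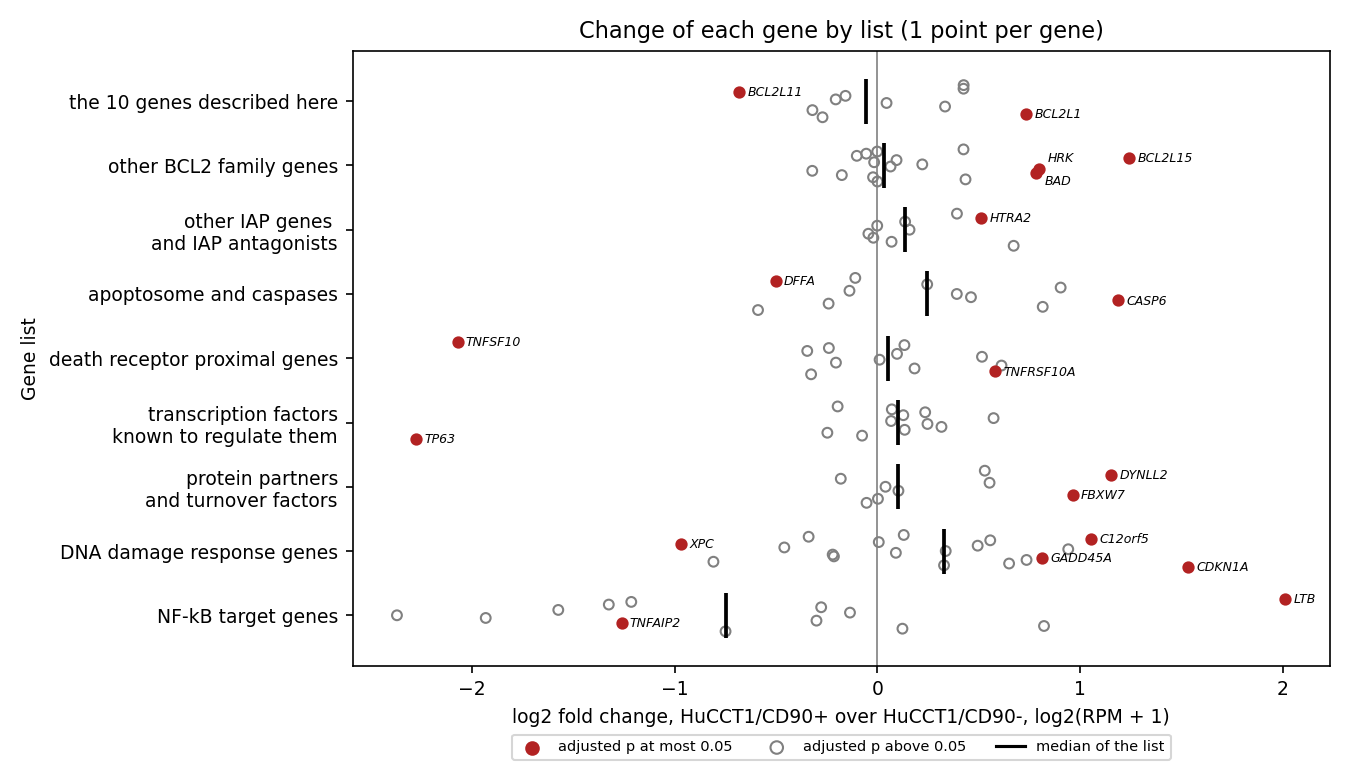
Log2 fold change of HuCCT1/CD90+ over HuCCT1/CD90− for each gene (points) of the 10 genes and of 8 other lists, with the median of each list as a black bar and genes called by limma filled in red and named. The medians of most lists lie between -0.055 and 0.33, that of the NF-kB target genes at -0.75, and each list has points on both sides of 0.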

How the data were processed

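Total RNA of 3 HuCCT1/CD90− and 3 HuCCT1/CD90+ libraries was profiled on the Ion AmpliSeq Transcriptome panel with an Ion GeneStudio S5 Prime. The authors took read counts from the ampliSeqRNA plugin and deposited them as RPM values, unfiltered, for 20811 genes. The submitters' processing notes name hg19 and the Transcriptome Analysis Console. Amplicon positions are not given in the sources used here, so gene positions were taken from GENCODE 29 on GRCh38 for 94.7% of genes.

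Whole reads were recovered from the RPM steps (100% of values in 5 libraries and 99.97% in HuCCT1/CD90− replicate 2, within 0.05 reads). Every pair of libraries differed by more than sampling noise in a chi-square test. Reads carry no molecular identifiers, so floors and intervals cover counting error only. Values were tested on log2(RPM + 1), which understates changes of low genes, with limma 3.58.1 in R 4.3.3 (lmFit and eBayes, two-sided, no filter), the method the study's methods name. Same-numbered libraries deviated together from the means of their lines (r = 0.21, 0.32 and 0.18, against -0.29 to 0.071 for other pairs). On this ground alone the numbers were treated as pairing the libraries in the replicate block, which is an alternative only. The main limma fit had no block, so its p-values, intervals and calls do not use the pairing.

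The 16 alternatives were offsets of 0.1 and 5 RPM, a filter at a mean of 1 RPM, quantile normalization, median centring, trended and robust eBayes, the replicate block, edgeR 4.0.16 (filterByExpr, TMM) and DESeq2 1.42.0 on the recovered reads, subtraction of the median change of 50 neighbouring genes, and each of 6 libraries left out. The neighbour median was subtracted as a fixed number, so p-values after it leave out the spread of the changes among the neighbours. The members and gene lists were chosen with earlier results of these data known. The genes named were the 10 members, THY1, up to 3 raised and 3 lowered genes called in each list with a mean of at least 1 RPM, and each other BCL2 family gene with at least 1 RPM. A few others are marked as chosen later or are named from edgeR or the block. Some genes of these pathways are not reported here.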

Additional observations from a re-analysis of the deposited data

How the results depend on the processing

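The calls of BCL2L1 and BCL2L11 were kept in all 16 alternatives, and of the other 8 members only MCL1 was called in any. Left-out libraries gave 1152 to 1393 genes called higher and 1045 to 1539 lower over the whole table, against 1958 and 1981, and the replicate block gave 1398 and 1331. The members called lower numbered 1 to 2, the second being MCL1 without HuCCT1/CD90− replicate 1 (log2 fold change -0.44 to -0.25 over the left-out libraries), and MCL1 was at 0.22 with the neighbours subtracted. BAK1 ranged from -0.017 to 0.11, BBC3 from -0.50 to 0.030 and PMAIP1 from -0.48 to 0.12 when 1 library was left out. In the other lists, the genes called higher and lower went from 12 and 5 to 21 and 13 with a filter at 1 RPM, 19 and 10 with median centring, 25 and 14 with edgeR, 24 and 13 with DESeq2, 11 and 4 with the replicate block, and 6 to 11 and 3 to 10 with 1 library left out. The filters test fewer genes, but median centring tests all of them. The filter at 1 RPM also changed p-values before adjustment. With it the adjusted p of BID was 0.11, below its unadjusted p of 0.12 without it (limma). The cause of these shifts was not tested. The replicate block changed the calls of no member. The sign turned in left-out fits for BCL2L13 (-0.074 to 0.049), BMF (-0.25 to 0.32), BNIP1 (-0.19 to 0.040), BNIP2 (-0.21 to 0.068) and BOK (-0.37 to 0.065), none of them called, and for DFFA (0.098) with the neighbours subtracted. BCL2 could not be fitted under the filters at 1 RPM or of edgeR. Of the 16 alternatives, BAD was called in 9, HTRA2 in 10, TNFRSF10A in 10, TNFAIP2 in 8, GADD45A in 7, FBXW7 in 6 and DFFA in 13. GADD45A and FBXW7 lost the call without any 1 library, TNFAIP2 without any but HuCCT1/CD90− replicate 2, HTRA2 without any but HuCCT1/CD90+ replicate 3, and DFFA without HuCCT1/CD90+ replicate 1 or 3. Of the members, BCL2 (0 to 8 reads in a library) and BBC3 (36 to 91 reads) had the fewest reads.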

Other observations

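Some NF-kB target genes varied widely between the HuCCT1/CD90− libraries. IL8, the gene of the neutrophil chemokine CXCL8, measured 40.5, 105 and 123 RPM in HuCCT1/CD90− and 23.7, 16.0 and 22.5 RPM in HuCCT1/CD90+. CXCL1, a related chemokine gene, measured 2.09, 15.4 and 16.1 RPM and then 0.643, 0.932 and 0.977 RPM. IL6, the gene of interleukin-6, measured 5.59, 25.5 and 19.6 RPM against 5.36, 5.82 and 5.64 RPM. For each of these genes, chosen after their values were seen, HuCCT1/CD90− replicate 1 was the lowest library of its line. It was also the lowest for the members BIRC3, PMAIP1, BBC3, MCL1 and BCL2L11, but the highest for BCL2L1, BAX and BCL2. IL8, CXCL1 and IL6 were not called with limma (adjusted p = 0.066 for IL8, 0.12 for CXCL1 and 0.26 for IL6). On the recovered reads all 3 were called lower, with edgeR and with DESeq2. Without HuCCT1/CD90− replicate 1, limma called 6 genes of the list lower, these 3 among them, against 1 with it.

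Genes of the mitochondrial death signal itself, also chosen after their values were seen, did not pass the threshold in the main limma fit but did on the recovered reads. After median centring, limma called 4 genes of the apoptosome and caspase list higher and 2 lower. CYCS, the gene of cytochrome c, had 175 ± 44.4 and 302 ± 20.7 RPM (adjusted p = 0.076 with limma, 0.00099 with edgeR and 0.11 with the replicate block). With the neighbours subtracted CYCS was at 0.52 on the log2 scale (adjusted p = 0.23, limma). APAF1, which assembles the apoptosome, had 27.9 ± 2.13 and 18.4 ± 3.51 RPM (adjusted p = 0.071 with limma, 0.014 with edgeR and 0.16 with the block).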
